A study of Mus musculus with 4 samples.

Results

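Wide gains are the 617 stretches of 2000 bp or more whose cytosine methylation was at least 20 percentage points higher in hair matrix keratinocytes lacking Tet2 and Tet3 than in WT cells. They were chosen by their measured width and by both group means in the authors' deposited table, out of 484555 listed regions, of which 474611 lie on chromosomes 1 to 19. DKO cells carried the genotype Tet2/Tet3 DKO with Krt14-Cre, a recombinase driven by the promoter of a basal keratin, so that the deletion is set in Krt14-expressing epithelium and its descendants and not in other skin cells. WT cells are labelled WT only, and the labels do not say whether these mice carried the Cre. Both genotypes were sorted hair matrix keratinocytes from mice at postnatal day 4.5, with 2 libraries each of whole-genome bisulfite sequencing, and separate animals behind the libraries of one genotype are not stated. The deposited table holds group means only, so the spread between libraries and the depth behind a level are unknown and no difference below has a replicate check. It holds no RNA, so the cell type label could not be set against its marker genes. The table's title names the WT before the DKO, and on that ground the first mean was read as the WT; with the reverse reading every direction below would turn.

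TET enzymes oxidise 5-methylcytosine, which starts its removal, and in many cell types they act at enhancers, the distal elements that raise transcription of a gene. Active enhancers usually show intermediate or low methylation, whereas most of the genome is highly methylated and dense CpG island promoters are nearly free of it. Super-enhancers are clusters of active enhancers spread along one locus, often at genes that define a cell type, and some actively used genes carry low methylation over much of their body. Hair matrix keratinocytes are the dividing epithelial cells at the base of the follicle that form the hair shaft and the inner root sheath around it. Bisulfite sequencing does not separate 5-methylcytosine from 5-hydroxymethylcytosine, the first oxidation product, so a level is the sum of both.

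Of the wide gains on the 18 chromosomes that the promoter table covers, 13 of 596 (2.18%) held a whole promoter window. A window was taken as 250 bases before to 50 bases after a listed gene start, which can lie inside the gene. The Dmkn start is at 30776405, in a body that begins at 30763756. The Adgrf4 start is at 42692284, in a minus-strand body that reaches 42697569. The starts of Sec16b, Zbtb7b and Elmo2 also lie inside the body, whereas those of P2rx7 and Krt28 lie at its 5′ end. Among the narrower gains, 461 of 105935 (0.435%) touched a window, which is a looser measure. A wider region also meets a fixed window more often by its size alone. The promoters of 4 of the 13 genes are shown. As in all 13, a wide gain ran across the whole window, so that these letters are among those whose methylation is reported. They were read from RefSeq (GRCm38.p6), 5′ to 3′ on the strand of the gene, with each CG dinucleotide in capitals. P2rx7 (an ATP-gated ion channel) and Adgrf4 (an adhesion G protein-coupled receptor) are among the 6 with the widest gains, Krt28 (a type I keratin of the inner root sheath) had the largest difference of all wide gains, and Dmkn (dermokine, secreted by differentiating epidermis) was added after its values were seen.
Krt28, chr11:99374854-99375153, minus strand: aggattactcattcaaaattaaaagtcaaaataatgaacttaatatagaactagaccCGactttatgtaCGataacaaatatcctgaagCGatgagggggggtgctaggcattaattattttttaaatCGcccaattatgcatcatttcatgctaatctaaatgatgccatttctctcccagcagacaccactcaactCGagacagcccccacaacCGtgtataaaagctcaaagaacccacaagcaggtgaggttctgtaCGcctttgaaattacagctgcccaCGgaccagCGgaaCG
P2rx7, chr5:122643677-122643976, plus strand: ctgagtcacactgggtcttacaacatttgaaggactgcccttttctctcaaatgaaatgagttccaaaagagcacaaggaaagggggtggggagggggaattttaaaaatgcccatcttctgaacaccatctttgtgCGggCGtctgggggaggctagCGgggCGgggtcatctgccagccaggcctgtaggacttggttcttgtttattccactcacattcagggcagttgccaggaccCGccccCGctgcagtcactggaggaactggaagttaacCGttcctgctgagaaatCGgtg
Dmkn, chr7:30776155-30776454, plus strand: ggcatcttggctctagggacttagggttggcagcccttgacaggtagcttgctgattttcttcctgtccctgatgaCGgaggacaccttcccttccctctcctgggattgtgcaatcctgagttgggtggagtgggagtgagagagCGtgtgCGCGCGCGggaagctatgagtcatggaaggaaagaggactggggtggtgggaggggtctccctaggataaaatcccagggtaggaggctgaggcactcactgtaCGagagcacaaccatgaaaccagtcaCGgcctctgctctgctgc
Adgrf4, chr17:42692235-42692534, minus strand: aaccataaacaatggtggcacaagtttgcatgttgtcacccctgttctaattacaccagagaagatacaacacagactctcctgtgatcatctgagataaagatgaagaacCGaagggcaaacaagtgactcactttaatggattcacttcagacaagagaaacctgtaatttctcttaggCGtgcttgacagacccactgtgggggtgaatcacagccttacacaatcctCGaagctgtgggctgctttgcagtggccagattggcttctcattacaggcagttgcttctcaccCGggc
The Krt28 window holds 10 CG dinucleotides, those of P2rx7 and Dmkn 8 each, and that of Adgrf4 holds 4.

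The wide gain over the Krt28 promoter, at chr11:99373727-99375814, was at 82.5% in the DKO and 24.5% in the WT in the authors' deposited table. Across the P2rx7 promoter, at chr5:122643660-122647848, the authors' deposited table gave 76.6% in the DKO and 21.7% in the WT. The stretch over the Dmkn promoter, chr7:30775132-30777540, was at 78.0% in the DKO and 31.1% in the WT per the authors' deposited table. All 3 lay above the median of the wide gains in the DKO and below it in the WT. At Adgrf4, chr17:42690456-42693101, the authors' deposited table had 71.7% in the DKO and 35.4% in the WT. The largest differences among the other promoter gains were at Zbtb7b and Gm38457 (both named after their values were seen). Zbtb7b, a zinc finger transcription factor, was at 70.8% in the DKO and 15.9% in the WT in the authors' deposited table. The predicted gene Gm38457 was at 81.8% in the DKO and 30.9% in the WT in the authors' deposited table. All 2267 bp of that region also lie in the body of Klf3, and 1409 bp in that of Gm38457. The remaining promoter gains lay at Elmo2, Rnase13, Aldh3b1, Atp2c1, Sec16b, Syt8 and Il22ra1.

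These promoters were poor in CG. In all, 14 windows of 13 genes were met, since Syt8 has 2, and they had a median of 6.5 CG dinucleotides (range 3 to 11), against a median of 14 over 20085 promoter windows. The letters TGANTCA, the recognition motif of AP-1, were found in 6 of the 14 (42.9%) and in 7.06% of all promoter windows. They read TGAGTCA in P2rx7 and Dmkn, at positions -249 and -82 from the start that set each window. Adgrf4 holds both TGACTCA at position -124 and TGAATCA at position -43 from its own such start. Sec16b, Syt8 and Il22ra1 hold the other matches. The GC box GGGCGG was in 4 of the 14 (28.6%), against 47.0% of all promoter windows, and the GATA motif AGATAA in 2 (14.3%), against 9.57%. Motifs were searched on both strands (TGANTCA reads the same on each), and matches of different motifs can share no more than an end base. All promoter windows are richer in CG than these 14, and GGGCGG itself holds a CG. No comparison with windows equally poor in CG was made, so the part of base composition in these shares was not tested. With 14 windows these shares are a description, and a match in letters does not show that a factor was bound.

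Wide gains also lay near a few microRNA genes. Of 919 autosomal hairpins, 7 (0.762%) lay within 5 kb of a wide gain. The share of protein-coding genes was 2.11%. Genes are far longer than hairpins (median 17491 bp), which offers more room for a region, so the 2 shares are not comparable. Mature sequences of 4 are shown, to identify the microRNAs, with the seed (bases 2 to 8) in capitals, as given by RefSeq (GRCm38.p6).
mmu-let-7c-5p: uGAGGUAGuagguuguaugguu
mmu-miR-99a-5p: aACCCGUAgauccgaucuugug
mmu-miR-26a-5p: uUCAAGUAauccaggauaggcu
mmu-miR-5114: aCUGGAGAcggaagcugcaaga
None of the mature sequences from the 7 hairpins shared a seed with another. The hairpins of miR-99a and let-7c, which are known from one cluster, shared 1 wide gain at chr16:77593177-77595734, 3202 and 3923 bp away, which was at 73.8% in the DKO and 28.3% in the WT in the authors' deposited table. For Mir26a-1, one of the genes that give miR-26a, the gain lay 4703 bp away and was at 80.5% in the DKO and 48.6% in the WT per the authors' deposited table. The hairpin of miR-5114 lay inside a wide gain at the fatty acid desaturase gene Scd2, at 76.6% in the DKO and 33.5% in the WT in the authors' deposited table. The other hairpins were Mir6911, Mir1941 and Mir3082.

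The wide gains were regions of intermediate methylation in the WT that were highly methylated in the DKO. Their median level was 74.2% in the DKO (interquartile range 68.8 to 79.1, range 39.9 to 91.1) and 34.9% in the WT (28.5 to 41.6, range 9.49 to 65.5). The median difference was 37.9 points (33.0 to 43.3, range 21.6 to 58.0), with 536 of 617 (86.9%) at 30 points or more and 36 at 50 or more. A spread column of the deposited table, called the spread estimate here and read as a fraction, had a median of 3.60 points (range 3.20 to 6.68); the sources used here do not define it. In the DKO, 572 regions (92.7%) were at 60% or more and 141 at 80% or more, and 7 stayed below 50%. In the WT, 387 (62.7%) lay between 20% and 40%, 193 (31.3%) between 40% and 60%, 35 below 20% and 2 at 60% or more. A minimum of 20 points fixes part of this shape, since it keeps every region at least that far above the line of equal levels.

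**Figure D1:**
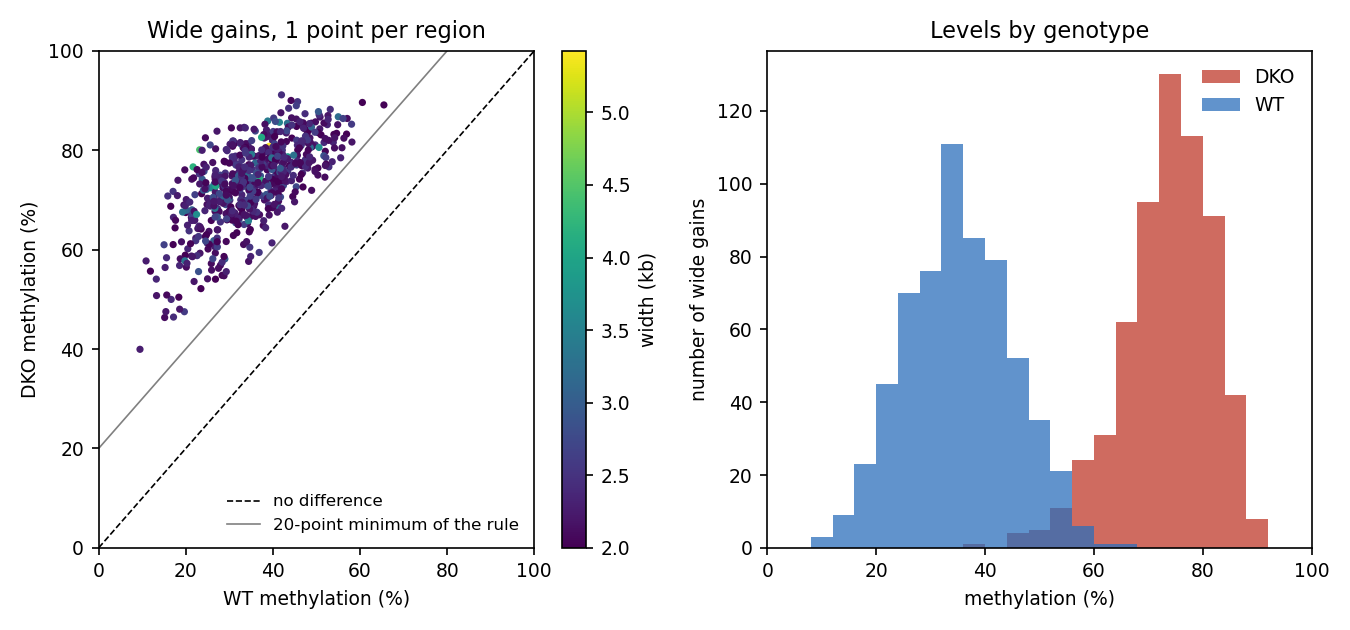
Left, methylation of each of the 617 wide gains in the DKO (vertical axis, %) against the WT (horizontal axis, %), 1 point per region, coloured by width in kb, with the line of no difference and the 20-point minimum of the rule. Right, number of wide gains by methylation level in each genotype; the DKO values centre on a median of 74.2% and the WT values on 34.9%.

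Few wide gains stood near the minimum difference, while many stood near the minimum width. Gpr161 and Knstrn, each at exactly 2000 bp, were the first inside the width threshold, and regions in Ubac1 and near Lmo4, at 1999 bp, the first outside it. For the difference, the nearest inside were Pmepa1 at 21.6 points and Podxl at 21.9 points, and the nearest outside were Nln at 16.7 points and Hdac5 at 15.9 points in the authors' deposited table. No wide region thus had a difference between 16.7 and 21.6 points. Lowering the minimum to 10 points gave 638 regions in place of 617.

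The difference and the WT level, both used by the rule or taken from the same contrast, describe the other listed regions of this width, and nothing is read from them. The table lists 3424 autosomal regions of 2000 bp or more, and 617 (18.02%) were wide gains. Over all widths, 110564 of 474611 autosomal regions (23.3%) were 20 points or more higher in the DKO. No wide region was lower in the DKO by 20 points, and 7 were lower by 10 to 20 points. A further 2548 wide regions (74.4%) differed by less than 5 points in either direction. Of the 2807 wide regions that were no wide gains, 1791 (63.8%) were at 70% or more in the WT, with a median of 2.60 cytosine positions per 100 bp, and 860 (30.6%) were below 20%, with 11.5 positions per 100 bp. Wide gains, with a median of 2.73 positions per 100 bp, were close in density to the first of these sets, and 35 of them were below 20% in the WT. Of the 650 wide regions with a WT level of 20% to 60%, 580 (89.2%) were wide gains.

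Width went with a lower level in the WT and hardly with the level in the DKO. Gains under 0.5 kb had medians of 76.5% in the DKO and 47.8% in the WT, those of 1 to 1.5 kb 75.1% in the DKO and 38.8% in the WT, and those of 3 kb or more 74.1% in the DKO and 34.5% in the WT. The 109947 narrower gains as a whole had medians of 76.3% in the DKO and 45.7% in the WT, a width of 343 bp and 11 positions. Wide gains had a median width of 2235 bp (interquartile range 2102 to 2484) and 64 positions (52 to 80, range 27 to 184), where the strands of a CpG are mostly counted apart. Most were only just wide. Of the 617, 473 (76.7%) were under 2500 bp, 42 (6.81%) reached 3000 bp and 8 reached 4000 bp. By number they were 0.558% of all autosomal gains, by length 3.01% (1460146 of 48441726 bp), and by positions 2.61%.

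**Figure D2:**
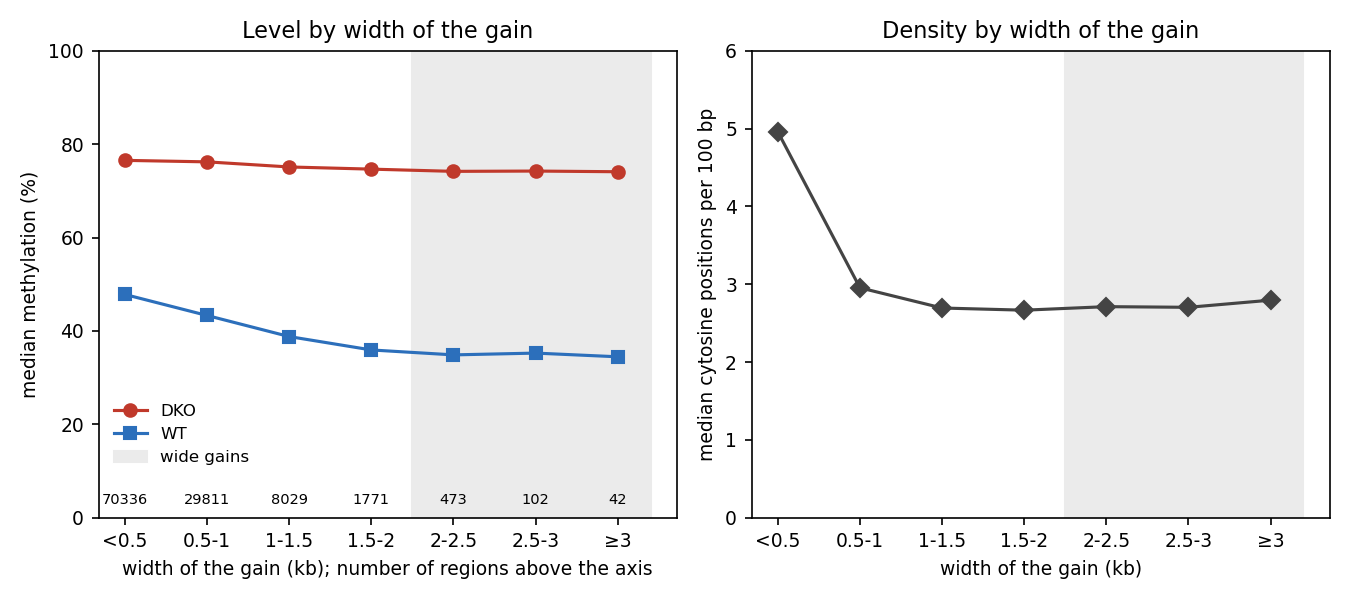
Left, median methylation (%) of autosomal gains of 20 points or more by width class in kb, DKO circles above WT squares, with the number of regions in each class above the axis. Right, median number of cytosine positions per 100 bp in the same classes; wide gains are shaded, and the WT median is 47.8% in the narrowest class and 34.5% in the widest.

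Wide gains were denser in cytosine positions than their surroundings and far from the density of CpG islands. Their median density was 2.73 positions per 100 bp (interquartile range 2.28 to 3.34, range 1.22 to 6.71). The 10 kb on either side had a median of 2.17 per 100 bp, against a mean of 1.47 over the autosomes, and the region was denser than its flanks in 483 of 617 cases (78.3%), with a median ratio of 1.28. Flank densities were estimated from the running number that the authors' table gives each position, by linear interpolation between listed regions. The highest density was in Chst3, a chondroitin sulfotransferase gene, with 184 positions in 2741 bp, followed among the regions with most positions by Irs1, the insulin receptor substrate, with 153 positions in 2341 bp. In both, WT methylation was above the median of wide gains. The Chst3 region was at 83.9% in the DKO and 36.0% in the WT, and the Irs1 region at 85.1% in the DKO and 52.5% in the WT, in the authors' deposited table. Other regions with many positions owed them to width as well, as in Slc39a11, a zinc transporter gene, with 164 positions, and Myo10, a myosin of filopodia, with 151.

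The stretches with the lowest WT level stayed well below the others in the DKO. A region 82503 bp from Lgalsl, a galectin-like gene, was at 39.9% in the DKO and 9.49% in the WT in the authors' deposited table, the lowest value for both genotypes. Inside Ptch1, the Hedgehog receptor and itself a target of the pathway, chr13:63559669-63561924 was at 57.7% in the DKO and 10.9% in the WT per the authors' deposited table. Next came a region 104441 bp from Frmd6, at 55.7% in the DKO and 11.9% in the WT, and one in Ybx3, a cold-shock domain gene, at 54.1% in the DKO and 13.2% in the WT (the authors' deposited table). All of these were below 20% in the WT and below 60% in the DKO. Bcl11a was at 50.7% in the DKO and 13.3% in the WT in the authors' deposited table. A region 16597 bp from the Wnt receptor gene Fzd5 was at 61.0% in the DKO and 15.01% in the WT in the authors' deposited table. All 6 were below the DKO median of 74.2%. At the other end stood regions in Lipa and Glb1, genes of lysosomal enzymes, where Lipa was at 89.1% in the DKO and 65.5% in the WT and Glb1 at 85.2% in the DKO and 58.1% in the WT (the authors' deposited table). Pnrc1, with 89.6% in the DKO and 60.5% in the WT, and Frmd4b, with 81.6% in the DKO and 58.1% in the WT, completed the 4 highest WT levels in the authors' deposited table.

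The largest differences joined a low WT level to a high DKO level. After Krt28 (58.0 points, spread estimate 3.22) came Nfib, a nuclear factor I gene active in follicle stem cells, where the authors' deposited table gave 80.1% in the DKO and 23.2% in the WT at chr4:82494100-82498535. The Nfib region was also the second widest, at 4436 bp, and held 145 positions. Nfib thus combined length with a large difference. A region 35875 bp from Haao was at 83.8% in the DKO and 27.2% in the WT per the authors' deposited table. Near Bcat1, a branched-chain amino acid transaminase gene 5214 bp away, the authors' deposited table gave 76.0% in the DKO and 19.8% in the WT. Inside Gtf2ird1, a transcription factor gene, the level was 79.97% in the DKO and 23.8% in the WT in the authors' deposited table. All of these were below 30% in the WT. The remaining members of the 8 largest lay 88527 bp from Tmx1, 117720 bp from Atp5g3 and in P2rx7, with differences of 55.8, 55.4 and 55.0 points in the authors' deposited table. These 8 regions differed by 55.0 to 58.0 points, beside spread estimates of 3.22 to 4.38 points.

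Wide gains seldom lay next to another wide gain. The widest region, 1236 bp from the sodium pump subunit gene Atp1b3 at chr9:96325995-96331419, spanned 5425 bp and was at 80.8% in the DKO and 39.1% in the WT in the authors' deposited table. Those of Ddx1 (34112 bp away), Tspan5 (377 bp away), P2rx7, Slc39a11, Lrpprc and Tle3 (201051 bp away) spanned 4302, 4287, 4189, 4178, 4066 and 4031 bp in the authors' deposited table. Levels in these 6 lay between 72.3% and 82.6% in the DKO and between 21.7% and 39.3% in the WT. Joining wide gains across gaps of up to 12.5 kb, a distance in common use for stitching enhancers, left 614 loci, of which 611 held a single wide gain. The 3 pairs were in Akap13, in Trio, a guanine exchange factor gene, and between genes about 144 and 155 kb from Fst, an inhibitor of activins and BMPs. For the pair beyond Fst the authors' deposited table gave 74.4% and 74.9% in the DKO and 21.8% and 32.1% in the WT. No locus held more than 2, even with gaps of up to 50000 bp, where 19 pairs remained among 598 loci. These loci join wide gains only, which are few, and do not show whether clusters that include narrower gains exist.

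Narrower gains surrounded the wide ones to about the same degree as they surrounded each other. Within 10 kb of a wide gain there were 2.46 narrower gains on average (median 2, highest 10), and within 10 kb of a narrower gain 2.34. None was found near 84 wide gains (13.6%) and near 14.03% of narrower gains, and 5 or more near 85 (13.8%) and 11.6%. A further gain lay within 500 bp of 159 wide gains (25.8%). The most crowded wide gains lay 245 bp from Apoc1, an apolipoprotein gene, with 10 neighbours, 445 bp from Casz1, a zinc finger factor gene, with 9, and 73723 bp from Map4k3 with 9 (named after their values were seen). A wide gain at Krt17 had 8 such neighbours. When gains 500 bp or less apart were joined before the width minimum, 2149 stretches reached 2000 bp, and 1532 of them (71.3%) held no wide gain. Whether a stretch counts as wide therefore depends on how the listed regions were bounded. The widest joined stretch, 56838 bp from Neo1, spanned 6598 bp and consisted of 5 listed gains, and 9 stretches reached 5000 bp.

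Most wide gains had their centre inside or between genes and few near gene ends. By their centre, 348 (56.4%, 95% Wilson interval 52.5 to 60.3, for counting error alone) were inside a protein-coding gene, 244 (39.5%) between genes and 25 (4.05%) within 1 kb of a gene end. Narrower gains were at 52.0%, 43.7% and 4.31%, and all listed autosomal regions at 45.3%, 50.5% and 4.19%. By any overlap, which favours wide regions, 59 wide gains (9.56%) and 5.34% of narrower gains met the 1 kb around a gene end, so that the order of these shares depends on the measure. Levels differed little by place, with medians of 74.5% in the DKO and 35.6% in the WT inside genes and 73.9% in the DKO and 34.8% in the WT between genes. The 25 at gene ends had medians of 70.002% in the DKO and 29.3% in the WT and a density of 3.37 positions per 100 bp. The gene table gives no exons, so exons, introns and UTRs were not told apart.

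**Figure D3:**
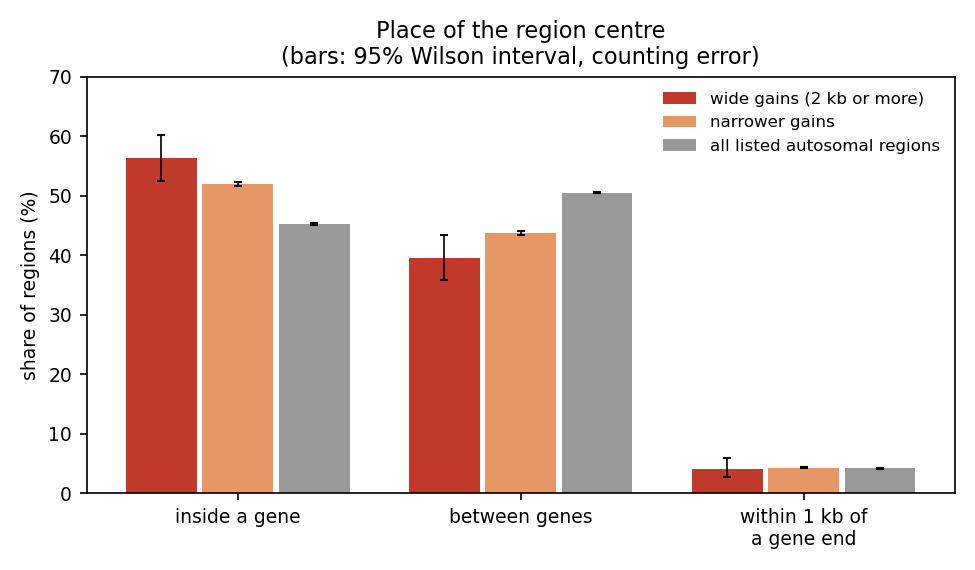
Share of regions (%) whose centre lies inside a protein-coding gene, between genes or within 1 kb of a gene end, for wide gains, narrower gains and all listed autosomal regions. Error bars are 95% Wilson intervals (counting error); 56.4% of wide gains lay inside genes and 4.05% near a gene end.

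Distances to gene starts were large, though by the median smaller than for all listed regions. The median distance from a wide gain to the nearest gene start was 41828 bp. It was 47066 bp for narrower gains and 60253 bp for all listed autosomal regions. Within 5 kb of a start lay 87 of 596 wide gains (14.6%), 12.5% of narrower gains and 9.27% of all listed regions. Within 1 kb the order was reversed, with 1.85% of wide gains, 2.23% of narrower gains and 2.42% of all listed regions. The 240 wide gains that overlapped no gene lay a median of 36842 bp from the nearest one (29 to 647706 bp), 40 of them within 5 kb and 59 beyond 100 kb. Inside genes, positions were spread along the body. They were counted from the 5′ end, with the strand taken from the promoter table. The 4 equal parts of the gene held 82, 71, 58 and 75 of the 286 wide gains that were so placed, all with a known strand. These are 28.7%, 24.8%, 20.3% and 26.2%. Of 46395 narrower gains the parts held 28.6%, 24.4%, 23.8% and 23.1%. On chromosomes, wide gains per 1000 gains ran from 4.10 on chromosome 13 to 7.76 on chromosome 15. None lay on the X chromosome, which had 455 gains of 20 points. Wide gains were 0.558% of autosomal gains, a share that leaves few among 455, so an absence particular to this chromosome is not shown.

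Genes with a wide gain were long and were covered over a small part. A wide gain lay in or within 5 kb of 435 of 20665 protein-coding autosomal genes (2.11%), and in the body of 360. The bodies so touched had a median length of 77349.5 bp, against 17491 bp for all genes. A longer body offers more room for any region, and genes touched by narrower gains were not measured, so this length is not particular to wide gains. Wide gains covered a median of 2.94% of these 360 bodies, 10% or more in 63 genes and 50% or more in 3. Those 3 were the short genes Rhbdl1 (78.1% of the body), Rnase13 (77.7%) and Ntf5, a neurotrophin gene (52.8%), followed by the follicle keratin gene Krt17 (47.1%). Among genes of 5 kb or more, coverage was highest in Cxcl9, a chemokine gene (46.8%), Tst, encoding a mitochondrial sulfurtransferase (42.7%), and Dlx3, a homeobox gene of the hair matrix (38.7%). Mycn, a MYC family gene (35.4%), Ppif (33.6%) and Lpcat4 (30.2%) came next. Coverage of 50% or more was thus seen in genes of 1913, 2663 and 3485 bp. The widest gain, 5425 bp, could not cover a gene of median length, and narrower gains in the same bodies were not counted, so domains built of several gains were not examined.

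Levels in these covered genes varied. The Cxcl9 region was at 67.9% in the DKO and 20.1% in the WT in the authors' deposited table. For Mycn, the authors' deposited table gave 76.6% in the DKO and 24.7% in the WT over 137 positions. For Tst it was 58.2% in the DKO and 26.2% in the WT, in the authors' deposited table. Wide gains were also rarely repeated at one gene. Of the 435 genes, 410 had a single wide gain, 22 had 2, Pdzd2 had 4, and Nhsl1 and Rbms3 had 3 each. These 3 genes are long, at 380258, 216228 and 1057168 bp, and wide gains covered 2.31%, 3.16% and 0.768% of their bodies. The widest in Pdzd2 was at 72.8% in the DKO and 28.8% in the WT in the authors' deposited table.

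Stem cell genes and transcription factors of the hair follicle had the highest shares of genes with a wide gain among the 22 lists at the settings used, an order that other settings changed. Of 18 genes known from the outer root sheath or from follicle stem cells, 6 (33.3%) had a wide gain within 5 kb, as had 8 of 36 transcription factors of the hair matrix and epithelium (22.2%), against 2.11% of all genes. Genes of these lists are long, with median lengths of 96148.5 and 29572.5 bp against 17491 bp, which offers more room for a region. Per Mb of gene with its 5 kb flanks, the order was different, with 6.87 wide gains for basal and epidermal keratins, 6.60 for inner root sheath keratins, 3.46 for the transcription factors, 2.36 for the stem cell list and 0.345 for all genes, where the keratin values rest on 2 and 1 wide gains. With a minimum width of 1500 bp, inner root sheath keratins had the highest share of these lists, 50% (4 of 8), against 44.4% for the stem cell list and 33.3% for the transcription factors. The shares were 3 of 18 (16.7%) for basement membrane genes, 2 of 14 (14.3%) for basal and epidermal keratins, 5 of 38 (13.2%) for the Shh, Eda, FGF and EGF pathways and 1 of 8 (12.5%) for inner root sheath keratins. They were 2 of 19 (10.5%) for DNA methylation genes, 3 of 34 (8.82%) for BMP and TGF-beta, and 2 of 40 each (5%) for Wnt and for junction and hair shaft genes. No set test was made, and with lists of 8 to 40 genes 1 member moves a share by several percentage points. The lists were chosen with earlier results of these data known, so their shares are a description and no independent support.

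**Figure D4:**
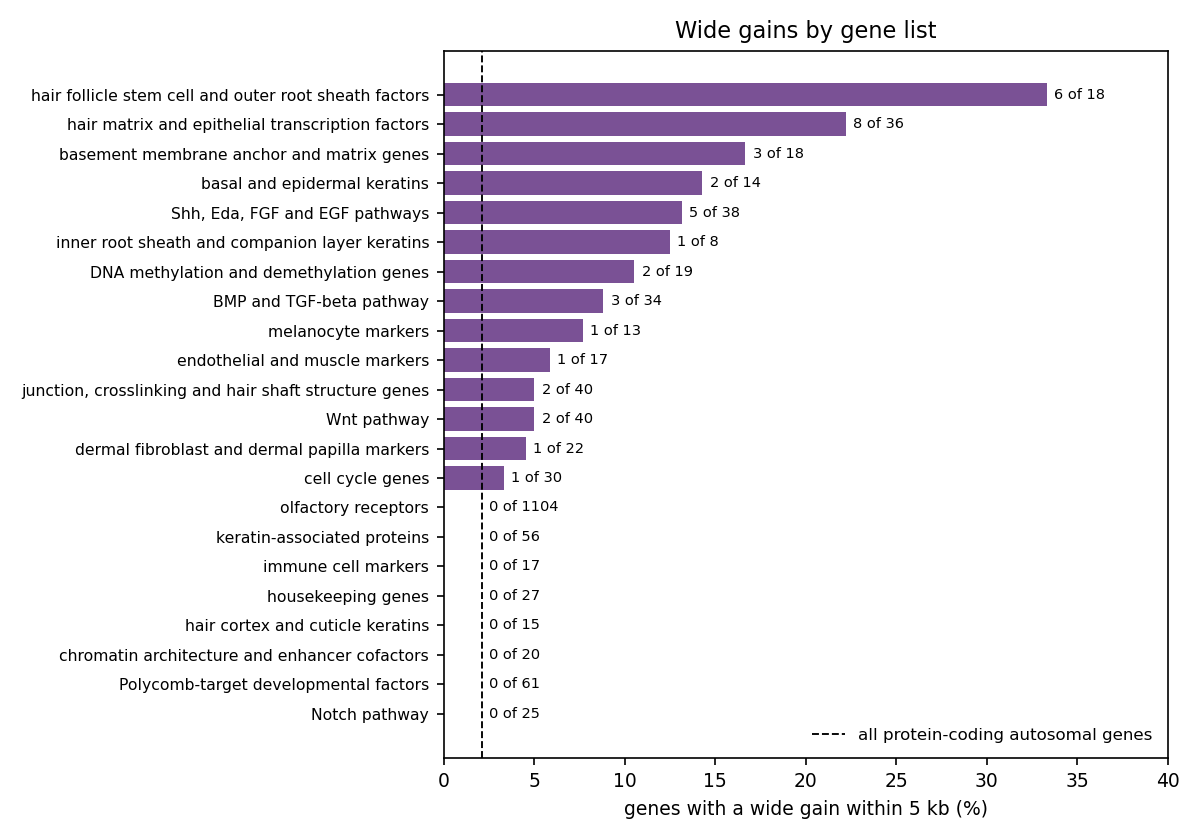
Percent of genes of each list with a wide gain within 5 kb (horizontal bars, with the count of genes beside each), and the share over all protein-coding autosomal genes (dashed line, 2.11%). Stem cell and outer root sheath genes are highest at 33.3%, and 8 lists had none. The lists were chosen with earlier results of these data known.

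In each of the remaining lists 1 gene or none had a wide gain. Every list with 1 lay above the 2.11% of all genes. With 13 to 30 genes in these lists, 1 gene gives such a share by list size alone, so nothing is read from it. The lists of other skin cells had 1 member each, Col5a1 of 22 fibroblast and dermal papilla genes (4.55%), Mitf of 13 melanocyte genes (7.69%) and Vwf of 17 endothelial and muscle genes (5.88%), and the immune list had none of 17. Cell cycle genes had 1 of 30 (3.33%). Per Mb of gene with its 5 kb flanks, the fibroblast, melanocyte and endothelial lists had 0.780, 1.02 and 1.11 wide gains, each resting on 1. These values are near those of follicle signalling lists, with 1.02 for Wnt and 1.06 for the Shh, Eda, FGF and EGF pathways. All genes had 0.345. No wide gain lay within 5 kb of the 15 hair cortex and cuticle keratins, the 56 keratin-associated protein genes, the 25 Notch genes, the 20 chromatin genes, the 27 housekeeping genes, the 61 Polycomb-target developmental factors or the 1104 olfactory receptors. Keratin-associated protein and olfactory receptor genes are short, with medians of 833 and 950 bp. At 2.11%, most of the shorter lists would hold less than 1 such gene, so that a count of 0 in them is near the share of all genes. With a minimum width of 1500 bp, 2 of the 15 cortex and cuticle keratins (13.3%) had one.

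Among the stem cell genes, Lgr5, a receptor for R-spondins on cycling follicle stem cells, was at 70.9% in the DKO and 18.1% in the WT in the authors' deposited table (chr10:115527952-115530212). Its relative Lgr6 was at 73.5% in the DKO and 38.2% in the WT per the authors' deposited table. For Tcf7l2, a partner of beta-catenin, the authors' deposited table gave 84.5% in the DKO and 33.7% in the WT. All 3 lay inside the gene. The related Tcf7l1 had its wide gain 3571 bp outside the gene, at 84.8% in the DKO and 45.4% in the WT in the authors' deposited table. Lrig1, an inhibitor of EGF receptor signalling, differed from these in its DKO level, which was 47.5%, with 19.7% in the WT (the authors' deposited table, spread estimate 6.68, the largest of all wide gains). Lrig1 and Pmepa1 were also the 2 wide gains whose extreme statistic was positive, where all others were negative.

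Transcription factors of the hair matrix covered a range of levels. Dlx3, at 56.4% in the DKO and 15.3% in the WT, and Bcl11a, a zinc finger factor at 50.7% in the DKO and 13.3% in the WT, were the lowest in the authors' deposited table. Vdr, the vitamin D receptor required for hair cycling, was at 75.5% in the DKO and 23.7% in the WT over 112 positions in the authors' deposited table. The epithelial regulator Ovol1 was at 67.8% in the DKO and 24.4% in the WT, and Grhl2, another, at 68.9% in the DKO and 25.4% in the WT (the authors' deposited table). All of these had a WT level below the median of wide gains, 34.9%. In Lef1, a partner of beta-catenin in the matrix, the region was at 74.6% in the DKO and 33.0% in the WT per the authors' deposited table. Runx1, with 69.5% in the DKO and 34.9% in the WT, was next in the authors' deposited table. The wider of the 2 gains at Casz1 was at 88.9% in the DKO and 45.4% in the WT in the authors' deposited table.

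In the keratin lists, Krt17, found in the outer root sheath and in activated epidermis, had a 2971 bp gain at chr11:100258761-100261731, at 72.0% in the DKO and 24.04% in the WT in the authors' deposited table. Krt80, an epithelial type II keratin, had one 2469 bp outside the gene, at 77.4% in the DKO and 29.99% in the WT in the authors' deposited table. Signalling genes with a wide gain included ligands, receptors, transducers and inhibitors. A region 2896 bp outside the ligand gene Wnt6, which overlaps an end of Prkag3, was at 72.5% in the DKO and 41.8% in the WT, and one in Tgfa, a ligand of the EGF receptor, at 75.3% in the DKO and 34.0% in the WT (the authors' deposited table). Among receptors, Edar, which binds ectodysplasin and is needed for placode formation, was at 75.2% in the DKO and 23.1% in the WT in the authors' deposited table. Egfr was at 74.8% in the DKO and 30.6% in the WT, and the BMP receptor gene Acvr1 at 81.4% in the DKO and 31.3% in the WT (the authors' deposited table). Ptch1, another receptor, was lower than these in both genotypes. Of the transducers and inhibitors, a region 4299 bp outside Smad5, which carries the BMP signal, and nearer to Gm45623 was at 61.7% in the DKO and 24.5% in the WT, and the inhibitory Smad6 at 69.3% in the DKO and 28.6% in the WT (the authors' deposited table). Nkd1, which restrains Wnt signalling, was at 74.7% in the DKO and 26.7% in the WT, and a region inside Actr1a, 3649 bp outside Sufu, which restrains Hedgehog signalling, at 74.7% in the DKO and 42.0% in the WT (the authors' deposited table).

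Structural genes had WT levels on both sides of the median of 34.9%. The hemidesmosomal plakin gene Dst was at 89.8% in the DKO and 45.7% in the WT, and Plec, another, at 81.7% in the DKO and 41.9% in the WT (the authors' deposited table). Fras1, a basement membrane matrix protein, was at 73.9% in the DKO and 41.9% in the WT in the authors' deposited table. The desmosomal plaque gene Pkp1 was lower, at 69.7% in the DKO and 26.4% in the WT, as was the tight junction gene Cldn1, at 70.6% in the DKO and 29.9% in the WT (the authors' deposited table). Both were below the WT median. Genes that set methylation itself were included, with Dnmt1, the maintenance methyltransferase, at 72.6% in the DKO and 46.9% in the WT, and Dnmt3a, a de novo methyltransferase, at 70.7% in the DKO and 37.8% in the WT (the authors' deposited table). Ccnd1, the cyclin D1 gene, had the highest WT level of the 38 list genes, 51.7%, with a DKO level of 78.9%, in the authors' deposited table. This region crosses an end of Ccnd1, with 1665 bp in its body and 2022 bp in that of LTO1. For the markers of other skin cells, Mitf was at 72.4% in the DKO and 25.7% in the WT, Col5a1 at 74.8% in the DKO and 28.5% in the WT, and Vwf at 72.0% in the DKO and 32.4% in the WT, in the authors' deposited table. Each was within the range of the follicle genes, and the part of other cells in the sorted population was not tested.

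**Figure D5:**
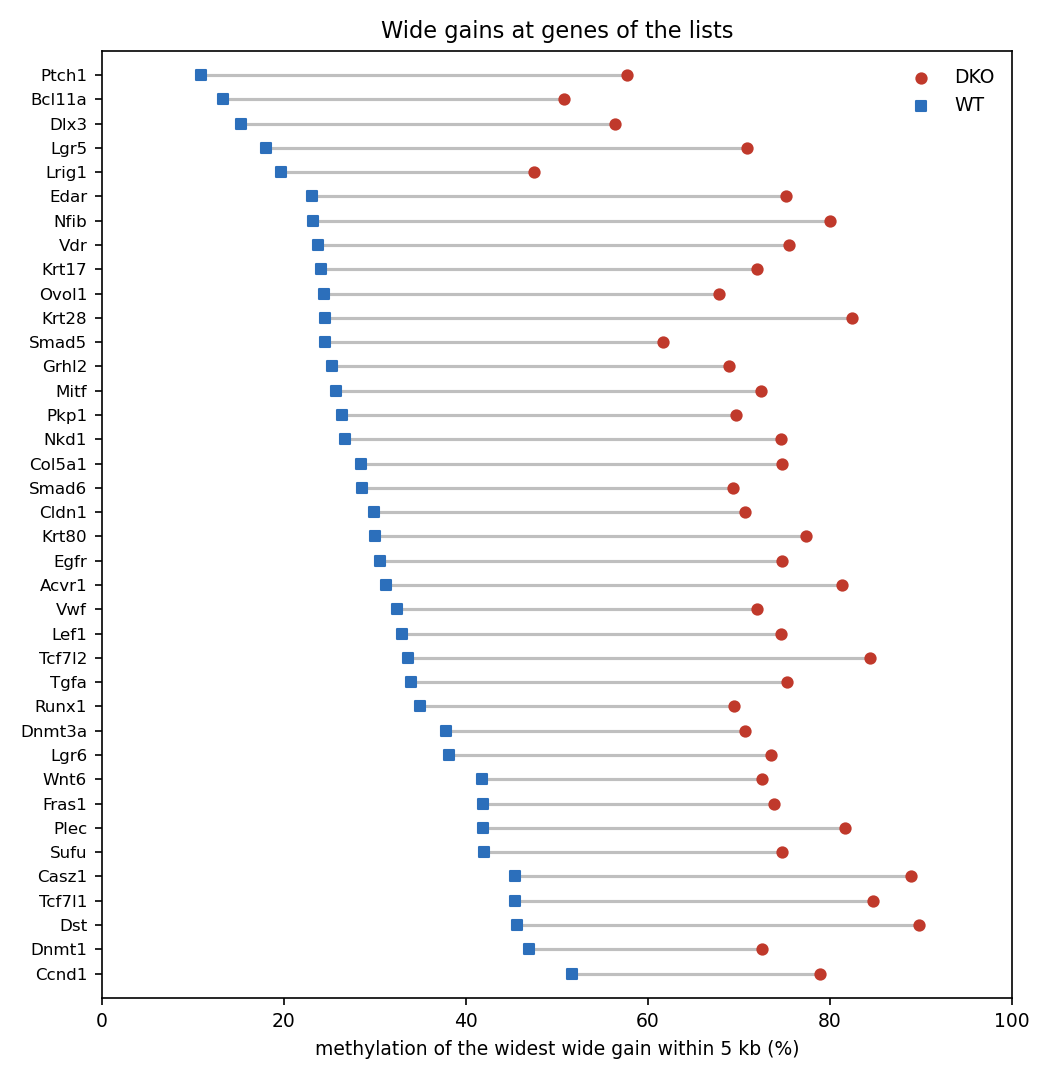
Methylation (%) of the widest wide gain in or within 5 kb of each of the 38 list genes, ordered by WT level, with DKO as circles and WT as squares joined by a line. WT levels run from 10.9% in Ptch1 to 51.7% in Ccnd1, and DKO levels from 47.5% in Lrig1 to 89.8% in Dst.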

How the data were processed

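Whole-genome bisulfite sequencing of sorted hair matrix keratinocytes was used, with 2 DKO and 2 WT libraries grouped by the genotype label. Per the submitters' processing notes, Trim Galore and Bismark were used and the genome build was GRCm38 (mm10). How regions were called is not given in the sources used here. Per the file headers, the deposited table gives a mean methylation level per group as a fraction, turned into a percentage here, and a statistic per region, treated as a score. The authors' width and number of positions were used as deposited, and no difference was tested, as the table has no values per library and no read counts. No interval or detection limit for a level could be given without the depth.

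Rows on chromosomes 1 to 19 with a width of 2000 bp or more and a difference of 20 points or more (DKO minus WT) were kept. Genes, gene starts, promoters and microRNAs came from RefSeq tables of GRCm38.p6, where 16457 of 20665 genes had a promoter sequence. The members and the 22 gene lists were chosen with earlier results of these data known. Genes were named by rule, as the extremes of width, difference, positions, WT level, gene coverage and number of gains, the widest gain of up to 2 genes per list, those nearest the thresholds and the 6 widest promoter gains, and the other list genes after their values were seen. Distances to gene starts, gains per Mb, flank densities, and the widest joined stretches were added after the data were seen. Wilson intervals cover counting error over regions only. The functions that set place, nearest gene and overlap were checked on made-up regions. Alternatives were other minimum widths, differences and densities, other windows and gaps, joined gains, and leaving out chromosomes 3 and 6. Tables were made with pandas 2.3.3, numpy 2.4.6 and scipy 1.17.1 under Python 3.11.15, and figures with matplotlib 3.10.9.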

Additional observations from a re-analysis of the deposited data

How the results depend on the processing

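The number of wide gains was 2388 with a minimum width of 1500 bp, 144 with 2500 bp, 42 with 3000 bp, 247 with a minimum difference of 40 points and 2149 with gains joined within 500 bp. It was 638 and 536 with a minimum difference of 10 and 30 points. The share inside genes was 43.1% with 5 kb around gene ends. Genes with a wide gain numbered 1362 at a minimum of 1500 bp, 36 at 3000 bp and 1211 with joined gains. At 3000 bp, the share was 0% for the hair matrix transcription factors and 5.56% for the stem cell list, where fewer regions remain. The other 57 alternative values of the main results stayed within a factor of 1.5 (counts and median width), the 95% counting interval (shares) or the median spread estimate of 3.60 points (median levels), with median widths of 1742 and 3348.5 bp at minimum widths of 1500 and 3000 bp. Without chromosomes 3 and 6, which carry Tet2 and Tet3, 547 wide gains remained, with medians of 74.2% in the DKO and 34.7% in the WT. No paired analysis was possible because the table gives group means only, and for the same reason leaving out each library was not run. The unknown depth limits every level.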
